A study of Mus musculus with 6 samples.

Results

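Pou4f3, Lhfpl5, Ripor2, P2rx2, Myo1a, Cntn5, Ccdc50 and Diaph1 are genes with a known or proposed role in hair cells or hearing that the authors' deposited list gives as up-regulated in the cochlea after treatment with mesenchymal stromal cells. These 8 genes were taken by symbol from the 1137 genes of that list, and Ripor2 is deposited under its older symbol, Fam65b. The table holds 41096 genes in all, of which 15970 passed the filter on low counts, the 8 genes included. The list was selected by comparing the same treated and control animals that are described here. The difference between the groups therefore chose the genes, and it is given as a description with no test.

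RNA came from the left cochlea of female mice, 4 weeks old, labelled C56Bl/6 and described in the methods as C57BL/6, all of which had been exposed to 16 kHz sound for 4 h. After 48 h, sound trauma animals (specimens 6, 8 and 10) received 1 µl of artificial perilymph in the posterior semicircular canal according to the methods, while the labels describe exposure to sound only. MSC treated animals (specimens 13, 18 and 20) received MSCs of human umbilical cord (Wharton's jelly), so that n was 3 animals per group. Values are given in this order of specimens throughout. RNA was taken 2 days after treatment according to the labels and 72 h after it according to the methods, which name 5 animals per group. Unexposed animals were not analysed here, so the level without noise is not known from these libraries. Libraries held between 9170390 and 11030863 reads on genes.

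Hair cells are the sensory cells of the organ of Corti. Deflection of their stereocilia opens mechanotransduction channels, and the resulting signal is passed through ribbon synapses to spiral ganglion neurons. Mature hair cells of mammals are not replaced, and they make up a small share of the cells in a cochlea. Pou4f3 encodes a transcription factor needed for their maturation and survival, and Lhfpl5 encodes a subunit of the transduction complex. Ripor2 encodes an inhibitor of RhoA found at the base of stereocilia, which lymphocytes and neutrophils also express. P2rx2 encodes an ATP-gated cation channel of hair cells, supporting cells and spiral ganglion neurons. Myo1a is the brush border myosin of the intestine, and its proposed role in deafness is disputed. Cntn5 is a contactin, a neuronal adhesion molecule of the auditory pathway. Ccdc50 encodes a ubiquitin-binding protein and Diaph1 a formin that nucleates actin. Both are expressed in many tissues and underlie dominant hearing loss when mutated.

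Levels per gene length were compared in FPKM-equivalent units, which are the deposited scaled counts of a gene divided by the length that the authors' mean FPKM implies. Diaph1 was the most abundant of the 8 genes, with 32.3 ± 4.97 (SD over all 6 libraries). Ccdc50 followed with 9.74 ± 0.845, P2rx2 with 9.54 ± 3.66 and Ripor2 with 6.02 ± 1.3. The hair cell genes Lhfpl5 and Pou4f3 were lower, at 2.10 ± 0.595 and 1.74 ± 0.542 FPKM-equivalents. Myo1a and Cntn5 were the lowest, at 0.765 ± 0.413 and 0.421 ± 0.17. Neighbours in this order are described by their log2 difference within libraries, with its SD over the 6 libraries, and with no test because the same libraries set the order. Diaph1 exceeded Ccdc50 in 6 of 6 libraries, by 1.72 (SD 0.18). The difference was also larger than its SD, and in the same direction in 6 of 6 libraries, for P2rx2 over Ripor2 (0.61, SD 0.38), Ripor2 over Lhfpl5 (1.54, SD 0.53) and Pou4f3 over Myo1a (1.33, SD 1.15). It was smaller than its SD for Ccdc50 over P2rx2 (0.11, SD 0.53, 3 of 6 libraries), Lhfpl5 over Pou4f3 (0.29, SD 0.47, 5 of 6) and Myo1a over Cntn5 (0.73, SD 0.77, 4 of 6), so the order within these pairs is not settled. With exon lengths from GENCODE M21 in place of those the FPKM imply, Pou4f3 stood above Lhfpl5, in 5 of 6 libraries, because that annotation gives Lhfpl5 nearly the same length as Pou4f3 (0.995 of it, against 0.532). With these lengths Lhfpl5 exceeded Myo1a by less than the SD (0.59, SD 0.82, 4 of 6 libraries), so their order is not settled either.

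**Figure D1:**
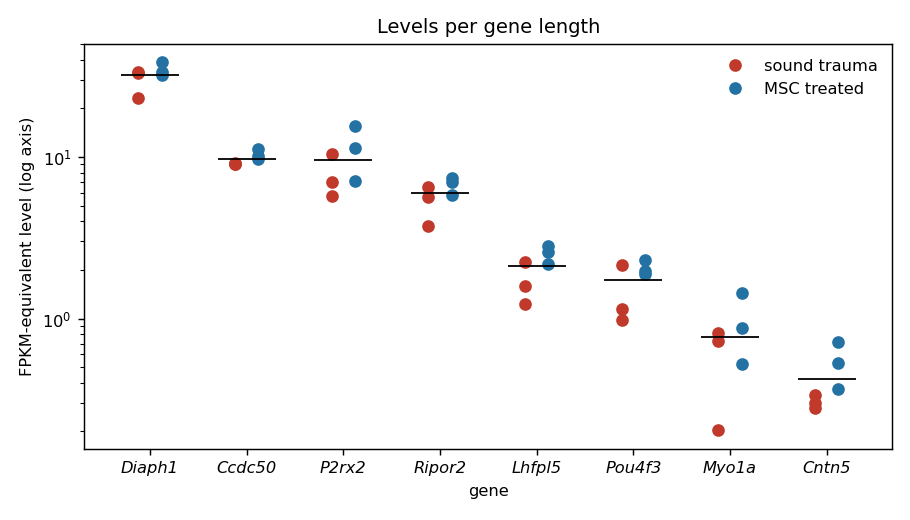
Levels of the 8 genes per gene length in FPKM-equivalent units on a log axis, with 1 point per library, sound trauma in red and MSC treated in blue, and a black line at the mean of the 6 libraries. Diaph1 has a mean of 32.3, Ccdc50, P2rx2 and Ripor2 lie between 6.02 and 9.74, and Lhfpl5, Pou4f3, Myo1a and Cntn5 lie at 2.10 or lower.

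Of the 8 genes, 5 have promoters in the RefSeq table for GRCm38.p6, which is not the genome the reads were aligned to. Windows of the 250 bases before the start are shown for Lhfpl5 (chr17:28575469-28575718), Ccdc50 (chr16:27388706-27388955) and Myo1a (chr10:127705006-127705255), as examples of a hair cell gene, a widely expressed gene and the gene of the intestinal myosin. CG dinucleotides are in capitals, and all 3 are on the plus strand.

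Lhfpl5: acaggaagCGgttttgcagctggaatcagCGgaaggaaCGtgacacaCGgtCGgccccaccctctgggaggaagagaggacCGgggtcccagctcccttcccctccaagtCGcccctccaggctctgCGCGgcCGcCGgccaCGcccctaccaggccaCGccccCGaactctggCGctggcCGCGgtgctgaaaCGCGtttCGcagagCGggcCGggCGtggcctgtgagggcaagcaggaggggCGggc
Ccdc50: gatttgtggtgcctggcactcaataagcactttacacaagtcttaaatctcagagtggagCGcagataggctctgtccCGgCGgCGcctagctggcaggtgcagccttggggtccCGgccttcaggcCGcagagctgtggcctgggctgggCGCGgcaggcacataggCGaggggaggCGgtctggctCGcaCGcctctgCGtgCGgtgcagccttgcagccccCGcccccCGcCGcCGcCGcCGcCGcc
Myo1a: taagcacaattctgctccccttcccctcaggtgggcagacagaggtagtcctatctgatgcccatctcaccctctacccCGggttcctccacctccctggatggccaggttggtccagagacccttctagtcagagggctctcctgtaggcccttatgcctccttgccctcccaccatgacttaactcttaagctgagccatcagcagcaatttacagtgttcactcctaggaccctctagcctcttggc

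The Lhfpl5 window held 24 CG dinucleotides and the Ccdc50 window 21, which put them at percentiles 88.7 and 84.4 of 32851 windows, where the median was 6. The Myo1a window held 1 (percentile 13.3). The 3 windows of Ripor2 held 8, 5 and 14, and the 2 windows of Cntn5 held 26 and 24. Among the 8 windows of the 5 genes, of which the 2 for Cntn5 overlap, the letters CAGCTG, a form of the E-box that reads the same on both strands, were found in 2, for Lhfpl5 and Ripor2, against 13.0% of all windows. On either strand, TATAAA and TAATTA were found in 0 of the 8 windows, against 12.4% and 4.84% of all windows. These matches describe letters only.

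Pou4f3 (MGP_C57BL6NJ_G0024789) was measured from few reads, with 23, 24 and 56 after sound trauma alone and 44, 43 and 55 after MSC treatment. As scaled counts, which are reads multiplied by a factor for each library, these were 26.7, 22.9 and 50.03 against 45.7, 43.9 and 53.4. The level in sound trauma specimen 10 lay within the range of the MSC treated animals, and specimens 6 and 8 lay below all of the other libraries. Exact 95% Poisson intervals, which cover counting error only, were 14.6 to 34.5 reads in specimen 6, 15.4 to 35.7 in specimen 8 and 42.3 to 72.7 in specimen 10. The intervals of specimens 8 and 10, which belong to the same group, do not overlap. The log2 fold change of MSC treated over sound trauma animals was 0.59 (standard error 0.34), and it was 0.37 without specimen 8 and 0.91 without specimen 10. When specimens 6 and 8 were left out together it was -0.07, which is the difference from specimen 10 alone, the only control then left.

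Lhfpl5 (MGP_C57BL6NJ_G0023850) had 27.8, 15.3 and 19.7 scaled counts without the cells and 27.0, 34.7 and 32.0 with them, from between 16 and 34 reads per library. Its order among the sound trauma libraries differed from that of Pou4f3, with specimen 6 the highest and above MSC treated specimen 13. For the lowest library, specimen 8, the Poisson interval ran from 8.74 to 24.8 scaled counts, and for the highest, specimen 18, from 24.0 to 48.5. The log2 fold change was 0.59 (standard error 0.32), with 0.40 to 0.81 when each library was left out in turn.

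Ripor2 (MGP_C57BL6NJ_G0020762) had 431, 649 and 750.5 scaled counts in the controls against 668, 800 and 854 with MSCs. Specimen 6 was the lowest library, and specimen 10 lay above MSC treated specimen 13. The log2 fold change of 0.37 (standard error 0.23) was 0.14 without specimen 6. P2rx2 (MGP_C57BL6NJ_G0030315) had 176, 145 and 265 scaled counts against 181, 287 and 393. MSC treated specimen 13 differed from sound trauma specimen 6 by less than the counting error, with intervals of 155 to 210 and 149 to 206 scaled counts. For P2rx2 the MSC treated animals varied about as much among themselves as the controls, with a coefficient of variation of 37.0% against 31.9%. Its log2 fold change of 0.53 (standard error 0.35) was 0.26 without MSC treated specimen 20, 0.34 without specimen 8 and 0.82 without specimen 13.

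Myo1a (MGP_C57BL6NJ_G0018225) had 32.4, 28.7 and 8.04 scaled counts against 20.8, 34.7 and 57.3. It was lowest in specimen 10, with 9 reads, in contrast to Pou4f3, for which specimen 10 was the second highest library. Its coefficient of variation was 56.99% for the controls and 49.0% with MSCs, the widest spread of the 8 genes in either group. Without specimen 10 its log2 fold change of 0.78 (standard error 0.62) was 0.18, and without specimen 20 it was 0.42. Cntn5 (MGP_C57BL6NJ_G0034833) had 15.1, 13.4 and 12.5 scaled counts against 23.9, 16.3 and 32.0, from 13 to 33 reads. The groups did not overlap, although specimen 18, with an interval of 9.34 to 26.5 scaled counts, was within counting error of the sound trauma libraries. Its log2 fold change was 0.73 (standard error 0.35), with 0.51 to 0.97 when each library was left out in turn.

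Ccdc50 (MGP_C57BL6NJ_G0023116) had the most even levels, with 793, 775 and 777 scaled counts in the controls against 961, 829 and 876 with MSCs. The sound trauma libraries had a coefficient of variation of 1.22%, and the groups did not overlap. Counting error was wider than this spread, with an interval of 734 to 854 scaled counts in specimen 6. MSC treated specimen 18, with an interval of 773 to 888 scaled counts, was within counting error of the sound trauma libraries. The means differed 1.14-fold. On the log2 scale the difference was 0.18 (standard error 0.11), and it lay between 0.12 and 0.23 when each library was left out in turn. Diaph1 (MGP_C57BL6NJ_G0024763) had 2121, 1481 and 2108 scaled counts against 2450, 2040 and 2141. Specimen 8 stood below the other libraries, and specimens 6 and 10 lay within the range of the MSC treated animals. The log2 fold change of 0.23 (standard error 0.18) was 0.06 without specimen 8. In the annotation of GRCm38, the spans of Ripor2, Cntn5 and Diaph1, introns included, overlap those of genes on the opposite strand. The spans of Cntn5 and Diaph1 also overlap those of genes on their own strand. Overlap of exons was not examined, and how the authors' counting treated strand and overlaps is not stated. Whether the reads of these 3 genes include any from such partners is therefore not known.

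**Figure D2:**
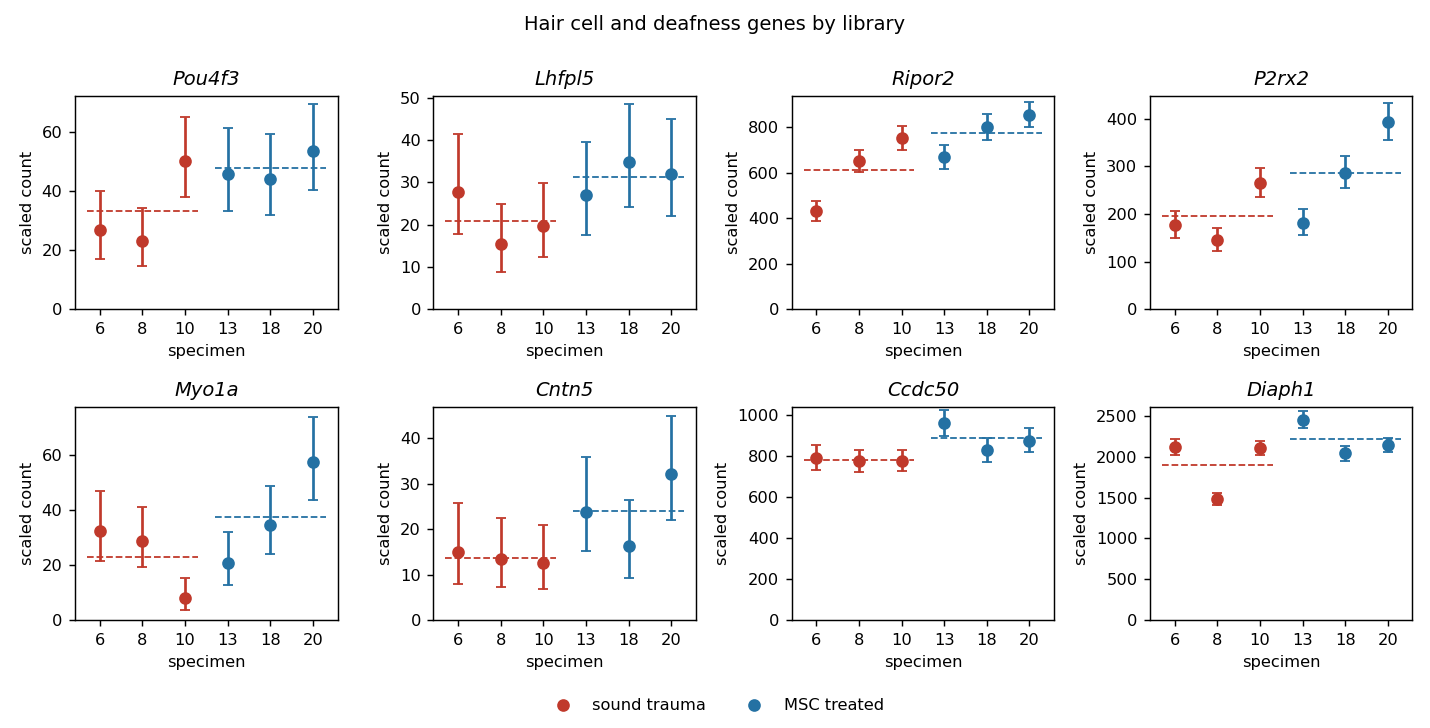
Scaled counts of the 8 genes in each library, by specimen, with exact 95% Poisson intervals as bars and the group mean as a dashed line, sound trauma in red and MSC treated in blue, each axis from 0. The groups are apart for Cntn5 and Ccdc50, specimen 10 lies with the MSC treated libraries for Pou4f3, Ripor2, P2rx2 and Diaph1, and Myo1a is lowest in specimen 10.

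Over the 8 genes the median log2 fold change was 0.56, where it was 0.36 over the 1127 genes of the authors' up-regulated list that were fitted and 0.00136 over all genes fitted. The median of the 8 genes was 0.36 without MSC treated specimen 20 and 0.13 without specimens 6 and 8, which leaves specimen 10 as the only control. Since the genes were taken from that list, their direction is that of the selection. Across all 15970 genes fitted, limma called 0 (0%) at an adjusted p under 0.05, while 376 (2.35%) had an unadjusted p under 0.05. Without specimen 10 that number was 2544, and with 1 of the other libraries left out it lay between 175 and 302. The count tests on recovered reads also called 0 genes, with 525 at an unadjusted p under 0.05 in edgeR and 799 in DESeq2. All MSC treated libraries exceeded all sound trauma libraries for 2 of the 8 genes, Cntn5 and Ccdc50, against 4.25% of all genes fitted and 19.6% of the up-regulated list. This count depended on the scaling and on single libraries. After scaling by total reads it was 4, with Lhfpl5 and Diaph1 added, against 5.23% of all genes fitted and 20.7% of the list. It was 5 without specimen 10, where the shares were 18.9% and 74.4%, and 6 without specimen 13, where they were 10.5% and 42.3%. With specimen 10 as the only control it was 4, where they were 21.9% and 27.3%. Specimen 6 or 8 held the lowest of the 6 values for 6 of the 8 genes, against 94.2% of the up-regulated list and 51.3% of all genes fitted. Specimen 10 lay within the range of the MSC treated libraries for 4 genes (Pou4f3, Ripor2, P2rx2 and Diaph1) and below it for the other 4. In the up-regulated list as a whole, 72.7% of genes had specimen 10 within or above that range.

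**Figure D3:**
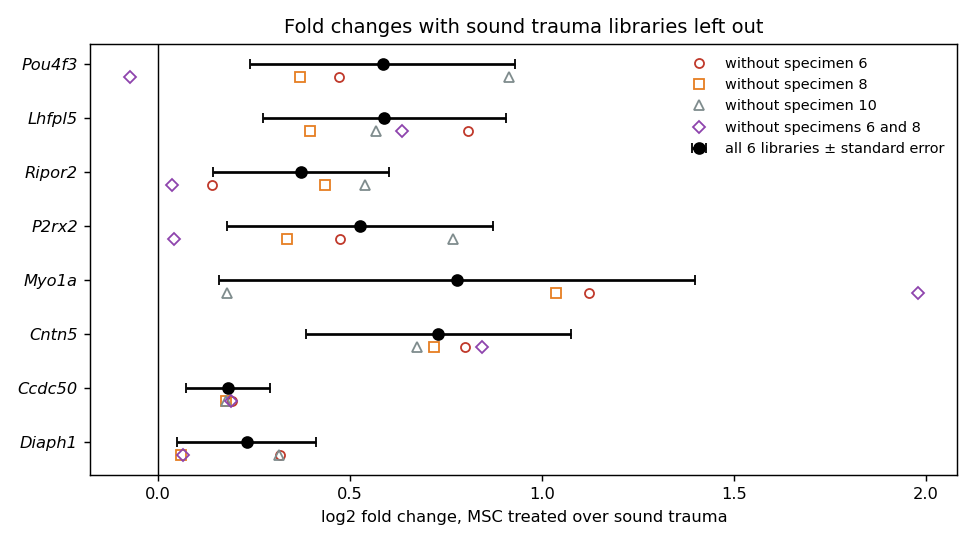
Log2 fold change of MSC treated over sound trauma animals for the 8 genes, with all 6 libraries (black, bars of 1 standard error) and with sound trauma libraries left out (open symbols). Without specimens 6 and 8, where specimen 10 is the only control left, Pou4f3, Ripor2, P2rx2 and Diaph1 lie between -0.07 and 0.06, while Lhfpl5, Myo1a, Cntn5 and Ccdc50 stay above 0, with Myo1a at 1.98.

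The lowest library was specimen 8 for Pou4f3, Lhfpl5, P2rx2, Ccdc50 and Diaph1 and specimen 6 for Ripor2. For Ccdc50, specimens 8 and 10 differed by less than counting error, at 775 and 777 scaled counts. Markers of tissues other than the cochlea were also summed in each library. The sums of cerebellar and choroid plexus markers were highest in specimens 6 and 8. All named cerebellar, choroid plexus, muscle and myelin markers come from the authors' down-regulated list, so that a higher sum in sound trauma animals is part of the selection. The 9 cerebellar granule neuron markers, of which 9 have a symbol in the deposited lists, took 0.253% of reads in specimen 8, 0.0368% in specimen 6 and 0.0164% to 0.025% in the other 4 libraries. Outside specimen 8, Zic2 was the most abundant of these markers. Cbln3, a synapse organizer of granule cells, had 5660 scaled counts in specimen 8 and 8.04 in specimen 10. The defining receptor subunit Gabra6 was at 3 reads or fewer in specimens 10 and 13. All 6 choroid plexus markers had a symbol and took 0.0728% and 0.0578% of reads in specimens 6 and 8, mostly through transthyretin (Ttr), against 0.0032% to 0.00453% elsewhere. Folr1 was at 3 reads or fewer in specimen 13. Of 12 skeletal muscle markers, 11 had a symbol, and they took 8.06% of reads in specimen 6, 4.97% in specimen 13, 0.377% in specimen 8 and 0.839% to 2.13% in the other libraries. The 5 named of 9 myelin markers took 0.339% in specimen 8, 0.245% in MSC treated specimen 18, 0.207% in specimen 6 and 0.089% to 0.124% in the other libraries. Only 2 of 10 leukocyte markers had a symbol, Cd68 and Ms4a1, both in the up-regulated list, so that a lower sum in sound trauma animals is part of the selection. They took 0.00847% and 0.0106% of reads in specimens 6 and 8, and 0.0172% in control specimen 10, the highest of all libraries. The MSC treated libraries lay at 0.014% to 0.0169%. Most of these reads came from Cd68, and Ms4a1 was higher in specimen 8 than in specimens 10 and 13. The part of these differences in the levels of the 8 genes was not tested. In whole cochlear RNA, fewer hair cells and less RNA per hair cell cannot be told apart.

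**Figure D4:**
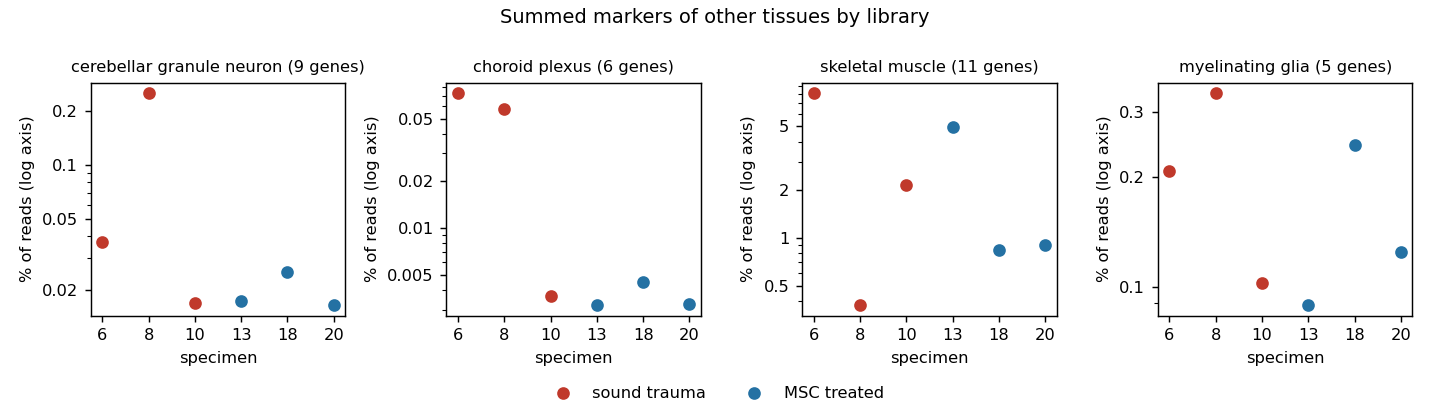
Percent of reads on genes taken by the named markers of 4 other tissues or cell types in each library, on log axes, sound trauma in red and MSC treated in blue. Cerebellar granule neuron markers are highest in specimen 8 at 0.253%, choroid plexus markers are high in specimens 6 and 8, and muscle markers are highest in specimens 6 and 13, at 8.06% and 4.97%.

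Other genes of the hair cell were described from a list of 57 genes, of which 13 have a symbol in the deposited lists, 5 in the up-regulated and 8 in the down-regulated list. Only selected genes have a symbol, so this split describes the selection, and the other genes were not analysed here by name. All 13 passed the filter. Of the 10 that are not among the 8 genes, limma gave 0 an adjusted p under 0.05 and 1 (Barhl1, with a log2 fold change of -1.94) an unadjusted p under 0.05, against 2.35% of all genes fitted, and these genes were selected by the same comparison. The up-regulated genes are Pou4f3, Lhfpl5, Ripor2, Otof and Ptprq. Otof, which encodes the calcium sensor otoferlin of the inner hair cell synapse, had 236, 234 and 604 scaled counts against 441, 559 and 403. Ptprq, a phosphatase of the stereocilia shaft, had 96.2, 115 and 269.8 against 212, 244 and 197. For both genes specimen 10 was the highest library, and specimens 6 and 8 were the lowest. Pou4f3 was also lowest in specimens 6 and 8. Within libraries, Pou4f3 amounted to 11.3%, 9.80% and 8.28% of the scaled count of Otof in the controls and to 10.4%, 7.86% and 13.3% of it with MSCs. The groups overlapped in this ratio, and the 2 controls with the lowest Pou4f3 had neither the lowest nor the highest share. Both genes were selected by the same comparison, and Pou4f3 rests on 23 to 56 reads per library, so nothing is read from this ratio. Ptprq amounted to between 40.7% and 49.0% of Otof in the 6 libraries. Lhfpl5 varied more, from 3.25% of Otof in specimen 10 to 11.8% in specimen 6. Of the 10 genes of the mechanotransduction complex and its assembly, only Lhfpl5 has a symbol here.

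The 8 hair cell genes of the down-regulated list had other orders over the libraries. Pvalb, a calcium buffer that muscle also makes in quantity, had 28381, 3038 and 9645 scaled counts against 19549, 4251 and 3629. Like the muscle markers it was highest in specimens 6 and 13, and so was Xirp2, an actin-binding protein of muscle and stereocilia, with 17750 and 9204 scaled counts in those libraries and 754 in specimen 8. Elmod1, which encodes a GTPase-activating protein, and Barhl1, a homeodomain factor that cerebellar granule neurons also express, were highest in specimen 8, with 637 and 86.0 scaled counts against 55.1 to 116 and 6.79 to 14.3 in MSC treated animals. Lhx3, a LIM homeodomain factor of hair cells and the pituitary, was highest in specimen 6, at 124 scaled counts, and lowest in specimen 8, at 11.5. The stereocilia genes Whrn, Eps8 and Ush1g had log2 fold changes of -0.46, -0.43 and -0.73, with standard errors of 0.34, 0.25 and 0.35. Without specimen 8 they were -0.30, -0.17 and -0.86 in that order, and without specimen 6 they were -0.29, -0.56 and -0.62. Ush1g had 24.3, 17.2 and 21.4 scaled counts against 16.6, 9.19 and 11.6. Specimens 6 and 8 were both below all MSC treated libraries for 4 of the 5 hair cell genes of the up-regulated list, Lhfpl5 in specimen 6 being the exception, as they were for 74.4% of that whole list and 18.9% of all genes fitted. Of the down-regulated list, Pvalb, Lhx3 and Xirp2 were low in specimen 8 and high in specimen 6.

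**Figure D5:**
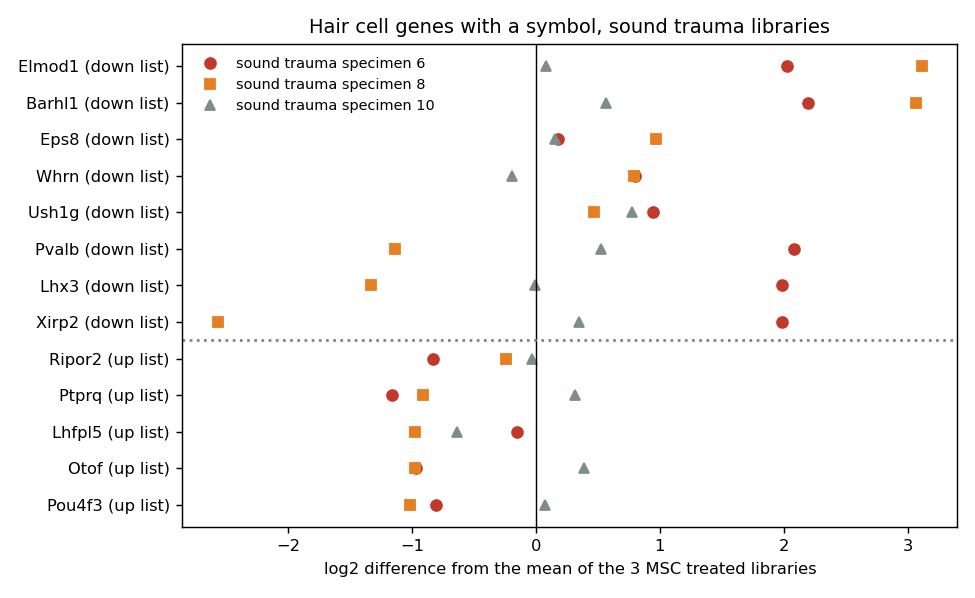
Log2 difference of each sound trauma library from the MSC treated mean for the 13 hair cell genes with a symbol, by specimen (red circles 6, orange squares 8, grey triangles 10). Genes of the up-regulated list lie below 0 in specimens 6 and 8, Elmod1 and Barhl1 lie at 2.02 to 3.12 in both, and Pvalb, Lhx3 and Xirp2 lie at 1.98 to 2.08 in specimen 6 and at -2.57 to -1.14 in specimen 8.

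Of 78 genes known or proposed for inherited deafness, 17 have a symbol, 12 of them in the up-regulated and 5 in the down-regulated list. Of the 10 that are not among the 8 genes, limma gave 0 an adjusted or unadjusted p under 0.05, against 2.35% of all genes fitted at an unadjusted p under 0.05. The 12 genes had median log2 differences from the MSC treated mean of -0.82 in specimen 6, -0.81 in specimen 8 and 0.02 in specimen 10. Besides 7 of the 8 genes described here they include Otof, Ptprq, Otog, Otoa and Tnc. For these additional genes specimens 6 and 8 were below all MSC treated libraries, as for 74.4% of the up-regulated list. Cntn5 was not on this list. The 5 genes of the down-regulated list (Whrn, Eps8, Myh14, Tprn and Adcy1) had medians of 0.80, 0.97 and 0.08 in the same order.

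Patterns over the 6 libraries were compared by Pearson's r of the log2 values between each gene and 3527 other named genes that passed the filter, as a description over points that share scaling and selection. Pou4f3 was most like Gm525, Lgals3bp and Lrrc8c (r of 0.993, 0.988 and 0.987), and 203 genes had an r over 0.9. The hair cell genes Ptprq and Otof stood at ranks 215 and 262, with r of 0.897 and 0.881. Ripor2 was most like Aim2 and Arl15 (0.998 and 0.996), with 318 genes over 0.9. P2rx2 was most like B230206H07Rik, Trim6 and Entpd3 (0.988, 0.987 and 0.984), and Diaph1 was most like Il17rd, Igf2r and Nedd4 (0.992, 0.991 and 0.984). Fewer genes resembled the others, with 12 over 0.9 for Lhfpl5, 10 for Ccdc50, 7 for Cntn5 and 5 for Myo1a. Their nearest genes were Fam96a, Raph1, Dok4 and D130043K22Rik, with r of 0.973, 0.955, 0.945 and 0.950. For Myo1a, the r with Otof was -0.41.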

How the data were processed

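RNA-seq of the left cochlea was analysed in 6 libraries, 3 per group. The authors trimmed and aligned reads with the AIR package to the C57BL/6NJ genome and counted them per gene. The counting tool, its strand setting and filters are not given in the sources used here. The deposited signal holds reads rescaled by a factor for each library, and 100% of values were whole multiples of 1 step (tolerance 1e-06 reads), from which reads were recovered. The deposited FPKM are the authors' group means. Their false discovery rates and fold changes were not used.

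Genes passing edgeR's filterByExpr on recovered reads were fitted with limma-trend on log2(scaled count + 1), so that fold changes of low genes are understated, with Benjamini-Hochberg adjustment. Alternatives were other scalings, filters and pseudocounts (0.1 and 10), edgeR's quasi-likelihood test, DESeq2, limma-voom and each library left out. Leaving out specimens 6 and 8 together was chosen after seeing the data. The fit was tested on simulated data. The genes, the lists and the rule for named genes (the 8 genes, listed genes with a symbol, and the 3 nearest by Pearson's r, of which 1 is not reported here) were chosen with earlier results of these data known. Libraries are separate animals by specimen number. Depth was 9170390 to 11030863 reads, and intervals cover counting error only. The fits used limma 3.58.1, edgeR 4.0.16 and DESeq2 1.42.0 in R 4.3.3. Tables and exact intervals used scipy 1.17.1 and pandas 2.3.3 in Python 3.11.15.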

Additional observations from a re-analysis of the deposited data

How the results depend on the processing

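The count of genes at an adjusted p under 0.05 in limma was 0, and 0 to 1 with each library left out. The 1 gene, Ttr, was called without sound trauma specimen 10. DESeq2, limma-voom and the quasi-likelihood test of edgeR called 0 genes and had 799, 350 and 525 genes at an unadjusted p under 0.05. The median log2 fold change of the 8 genes was 0.45 to 0.63 under the other scalings, filters, pseudocounts and tests and 0.36 to 0.65 with each library left out. Without sound trauma specimens 6 and 8 together, which leaves specimen 10 as the only control, it was 0.13. For Pou4f3 the log2 fold change without sound trauma specimens 6 and 8 was -0.0733. The number of the 8 genes with groups that do not overlap was 2, with 4 after scaling by total reads, 4 without specimens 6 and 8, and 2 to 6 with each library left out. Fewer libraries make a gap between groups easier by construction. The cause of the other differences was not tested. With at least 10 reads required in every library, Myo1a was removed. Pou4f3, Lhfpl5, Cntn5 and Myo1a rest on 9 to 59 reads per library, so counting error is large for them, although the counting intervals of Pou4f3 in specimens 8 and 10 do not overlap. No paired analysis was possible because the specimen numbers are not shared between the groups.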
